A study of Schizosaccharomyces pombe with 4 samples.

Results

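The core histone genes of fission yeast, Schizosaccharomyces pombe, were compared between wild-type cells and cells deleted for red2. They were taken from the array's own descriptions, as entries naming histone H2A, H2B, H3 or H4 and not an enzyme, chaperone or regulator that acts on them. This gave 11 of the 4997 array genes: hta1 and hta2 for H2A, htb1 for H2B, hht1, hht2 and hht3 for H3, hhf1, hhf2 and hhf3 for H4, and the genes of an H2A variant (pht1) and an H3 variant (cnp1). The study hybridised Cy3-labelled total RNA from logarithmic cultures in rich medium with glucose and adenine at 30 °C to 1-colour oligonucleotide arrays. The wild-type strain FY12806 and the red2 deletion strain SP744 had 2 arrays each, and the labels name no other allele or agent. The description of deletion replicate 2 gives red3 as the missing gene, while its title and strain label give red2. Whether each array had a culture of its own is not in the labels, so the p-values reflect the spread among these arrays, part or all of which may be technical.

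Core histones wrap DNA into nucleosomes, each built from H2A, H2B, H3 and H4. In fission yeast the canonical genes are mostly arranged as divergent pairs, H3 with H4 and H2A with H2B, and their transcripts peak in S phase, when new chromatin is made. The GATA factor Ams2 promotes their transcription and the HIRA complex restrains it outside S phase. The variant gene pht1 encodes H2A.Z, found near promoters, and cnp1 encodes the H3 of centromeric nucleosomes. The gene red2 is named for RNA elimination, the nuclear destruction of meiotic messages in growing cells, and the comparison asks how transcript levels differ without it.

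The targeted gene could not be checked, since red2 is not a name in any table used here. A loss of signal was seen for 1 array gene (above 11 on the log2 scale on both wild-type arrays and below 9 on both deletion arrays). Arrays of a group correlated across genes with r = 0.997 and 0.996, against 0.934 to 0.945 between groups. Median intensities were 21235 and 21282 for wild type against 22085 and 22104 for the deletion. In the column headers both wild-type arrays carry the same array number and both deletion arrays another, so whatever that number marks cannot be told apart from genotype. Over the whole array, 29.8% of genes were lower and 34.0% higher in the deletion (limma adjusted p under 0.05).

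A single histone gene, hhf3, changed by a large amount. This H4 gene (chromosome II, 3488845 to 3489156, coordinates as deposited with no build named) read an intensity of 39369 and 41006 on the wild-type arrays against 13438 and 13990 on the deletion arrays. Both deletion arrays thus lay far below both wild-type arrays. The other canonical genes had log2 differences between -0.36 (hht2) and -0.003 (htb1). RNA of a whole culture does not separate the share of cells in S phase from the transcript per cell, and neither was tested. The level of hhf3 was 2.93-fold lower, a log2 difference of -1.55 ± 0.05 (SE, n = 2 arrays in each group) that passed the test (limma adjusted p = 2.28e-05). It was 1 of 127 array genes, 2.54% of all, that passed the test and fell at least 2-fold, and the 12th lowest of the 4997. Short genes fell this far more often. Of the 574 other array genes that span at most 500 bases, as hhf3 does, 60 were at least 2-fold lower and 7 fell further than hhf3. Every array reports a gene in 2 blocks, and both showed the fall, with log2 differences of -1.67 in the first and -1.44 in the second. In the authors' deposited table the ratio of deletion to wild type for hhf3 was 0.311 and 0.375 in the first array pair and 0.320 and 0.364 in the second.

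The log2 differences of both other H4 genes were smaller. The gene hhf1 (chromosome I, 4660286 to 4660597) read 59959 and 58861 in wild type against 51079 and 50115 in the deletion. The difference was 1.17-fold, and hhf1 fell by 0.23 ± 0.05 in log2 (limma adjusted p = 0.00688), a fall that did not pass without wild-type replicate 1 (adjusted p = 0.0613) and turned to 0.02 with the trend on gene length removed. The gene hhf2 (chromosome II, 1299118 to 1299429) read 40735 and 37658 in wild type against 36267 and 35424 in the deletion. Its groups did not overlap, but the log2 difference of -0.13 ± 0.06 did not pass the test (limma adjusted p = 0.101). It passed as lower with quantile normalization, with centred arrays, with the first block alone and with the level trend removed (adjusted p = 0.0363, 0.0346, 0.044 and 0.0483), and was higher with length and level removed together. The deposited table gives the same protein accession to all 3 H4 genes. Transcripts of near-identical copies can hybridise to each other's probes, so part of each H4 signal may come from the other copies, and the probe sequences were not used here.

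**Figure D1:**
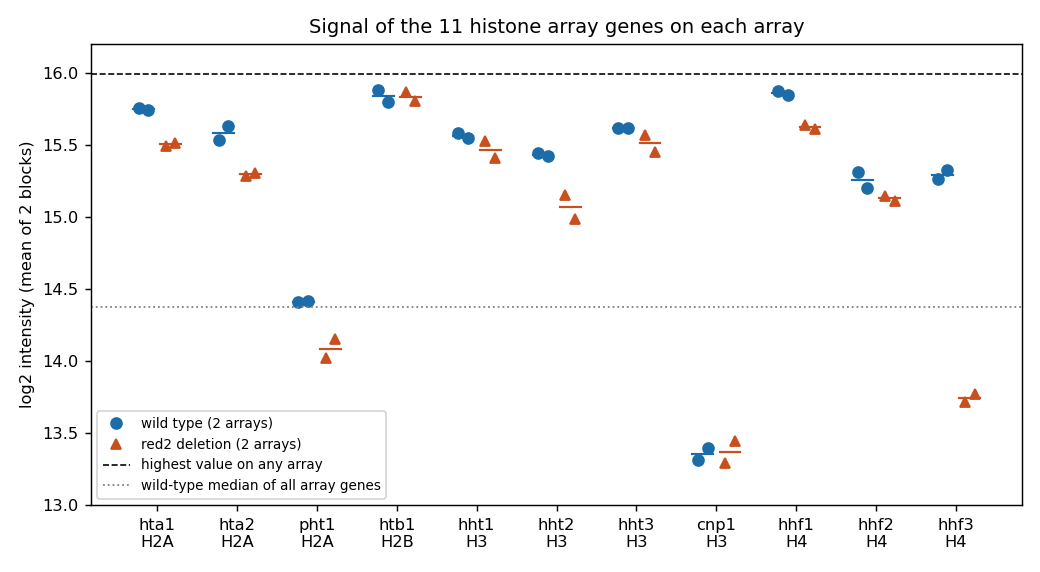
Signal of each histone array gene as log2 intensity (mean of 2 blocks), with a point per array (circles, 2 wild-type arrays; triangles, 2 red2 deletion arrays) and a bar at each group mean. The dashed line is the highest value on any array, 15.99, and the dotted line the wild-type median of all array genes, 14.38; hhf3 drops from above 15 to below 14 while the other canonical genes stay near 15 or above.

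Of the 3 canonical H3 genes, which supply the histone that pairs with H4, hht2 passed the test. The gene hht2 (chromosome II, 1298373 to 1298783) read 44500 and 44001 in wild type against 36395 and 32445 in the deletion. It was 1.29-fold lower, a log2 difference of -0.36 ± 0.07 (limma adjusted p = 0.00442), with no overlap between groups. With the trend on gene length removed it stood at -0.13 and did not pass (adjusted p = 0.2). The gene hht1 (chromosome I, 4661030 to 4661440) read 49058 and 47817 in wild type against 47132 and 43593 in the deletion, a log2 difference of -0.10 ± 0.06 that did not pass (limma adjusted p = 0.197). The gene hht3 (chromosome II, 3488197 to 3488607), the neighbour of hhf3, read 50266 and 50389 in wild type against 48582 and 44819 in the deletion. Its log2 difference was -0.11 ± 0.06 (limma adjusted p = 0.147), and its blocks disagreed, at 0.03 in the first and -0.25 in the second. On deletion replicate 1 the blocks of hht3 lay 0.41 apart on the log2 scale, the widest gap of any histone gene. Without deletion replicate 1, hht1 and hht3 both passed as lower (limma adjusted p = 0.0497 and 0.0325), and hht3 did so too with centred arrays (0.0475) and with the second block alone (0.0236). The centromeric H3 gene cnp1 (chromosome II, 3497679 to 3498041) read 10195 and 10818 in wild type against 10060 and 11181 in the deletion, so the groups overlapped, and its log2 difference was 0.01 ± 0.07 (limma adjusted p = 0.873).

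Both canonical H2A genes and pht1 fell slightly in the values as deposited, but none of these falls passed with the trend on gene length removed. The H2B gene did not pass as lower in either. The gene hta1 (chromosome III, 1415423 to 1415821) read 55405 and 54774 in wild type against 46164 and 46867 in the deletion, a log2 difference of -0.24 ± 0.05 (limma adjusted p = 0.0053). The gene hta2 (chromosome I, 4014054 to 4014449) read 47544 and 50734 in wild type against 39946 and 40551 in the deletion, a log2 difference of -0.29 ± 0.05 (limma adjusted p = 0.00487). In both, each deletion array lay below each wild-type array. The variant gene pht1 (chromosome II, 1461020 to 1461535) read 21730 and 21922 in wild type against 16617 and 18214 in the deletion, and fell by 0.33 ± 0.06 (limma adjusted p = 0.00449). The gene htb1 (chromosome III, 1416383 to 1416763) read 60251 and 57022 in wild type against 59867 and 57122 in the deletion. Its groups overlapped, and its log2 difference of -0.003 ± 0.056 has a 95% interval of -0.14 to 0.13.

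In counts, 6 of the 11 histone genes were lower, 0 were higher and 5 did not pass (limma adjusted p under 0.05), where 29.8% of all array genes were lower. Both deletion arrays lay below both wild-type arrays for 9 of the 11, as for 41.2% of all array genes, and above them for 0 of the 11, as for 43.4% of all. The median log2 difference of the 11 was -0.23, against 0.01 over all array genes. Without hhf3 the lowest value was that of hht2, and 10 of the 11 values were below 0. With the trend of log2 difference on gene length removed, 1 of the 11 was lower and 2 were higher, where 35.4% and 28.3% of all array genes were.

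**Figure D2:**
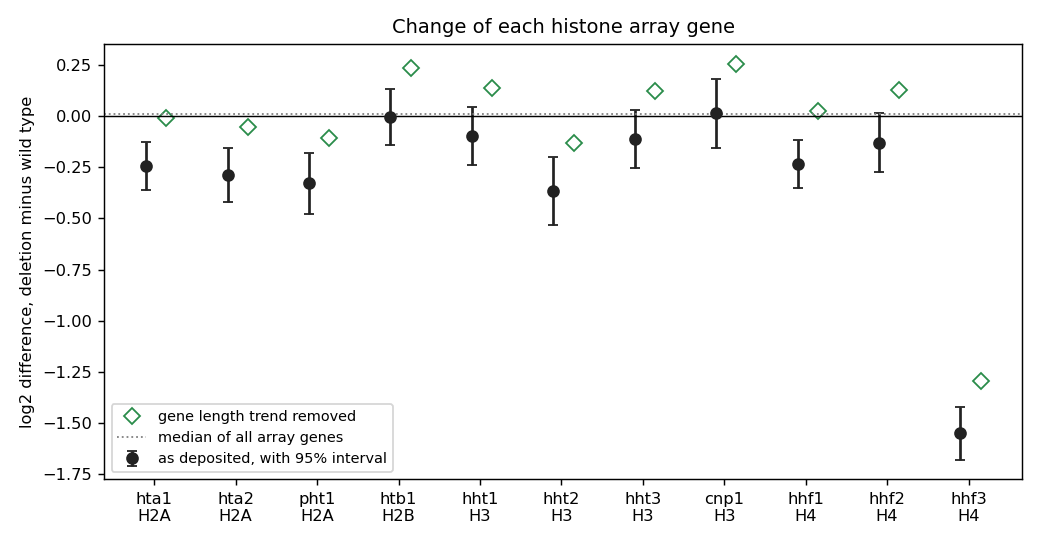
Log2 difference between deletion and wild type for each histone array gene (filled circles, 95% interval from limma, 2 arrays per group), and the same after the trend with gene length was removed (diamonds). The gene hhf3 stands at -1.55 and at -1.30 with the trend removed, and the other genes lie between -0.36 and 0.01 before and between -0.13 and 0.26 after.

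Paralogues were compared by the difference of their log2 changes, which sets each gene against itself across strains and needs no comparison of signal between genes. There were 12 pairs within the families, fitted across all array genes. In this fit the spread was first estimated from rows that share a reference gene, and 4 pairs passed (adjusted p under 0.05); with the spread taken from the genotype fit, a choice made after the data were seen, 5 passed. Intervals and p-values below are from the second fit. An exact permutation test of 2 arrays against 2 cannot go below p = 0.333.

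The H4 paralogues were the ones furthest apart. The log2 change of hhf3 minus that of hhf2 was -1.42 (95% interval -1.64 to -1.21, limma adjusted p = 0.000314), a 2.68-fold difference. Signal of hhf3 minus hhf2 was -0.05 and 0.12 on the wild-type arrays against -1.43 and -1.34 on the deletion arrays, with no overlap. The change of hhf1 lay 1.32 above that of hhf3 (95% interval 1.13 to 1.504, limma adjusted p = 4.15e-06). Relative to hhf2, 55.4% of the other array genes also passed (57.1% in the first fit), and relative to hhf3 99.2% did (99.5%), so a pass by itself sets no gene apart here. The pair hhf1 minus hhf2 differed by -0.10 (95% interval -0.28 to 0.07, limma adjusted p = 0.256).

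Among the H3 genes hht2 stood below the other members. The change of hht3 was 0.26 higher than that of hht2 (95% interval 0.09 to 0.42, limma adjusted p = 0.0164), and the change of hht1 was 0.27 higher (0.10 to 0.44, adjusted p = 0.0139). That of cnp1 was 0.38 higher than hht2 (95% interval 0.09 to 0.67, limma adjusted p = 0.0288). Relative to hht2, 72.7% of the other array genes passed (72.1% in the first fit). With the spread estimated as first planned, the pair of hht3 and hht2 did not pass (adjusted p = 0.0582). In that fit the pair of hht1 and hht2 was lost without wild-type replicate 1 or 2 (adjusted p = 0.22 and 0.251), as was the pair of cnp1 and hht2 (0.15 and 0.056). With the length trend removed the pair of hht1 and hht2 did not pass (adjusted p = 0.13). Both span 411 bases, so their difference stayed at 0.27, and only the estimated spread and the adjustment over genes changed. With length and level removed this pair stood at 0.23 and did not pass (0.166). In the second block alone neither that pair nor the pair of cnp1 and hht2 passed (adjusted p = 0.284 and 0.126). The genes hht1 and hht2 share a protein accession in the deposited table, and hht3 has its own. The change of hht1 minus hht3 was 0.01 (95% interval -0.15 to 0.18), and neither pair of cnp1 with hht3 or hht1 passed, though with length and level removed cnp1 lay above both (adjusted p = 0.00993 and 0.0025). Relative to hht3, 54.0% of the other array genes passed (55.8% in the first fit), and relative to cnp1 48.4% did (49.8%).

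No H2A pair passed. The change of hta2 minus that of hta1 was -0.04 (95% interval -0.22 to 0.14, limma adjusted p = 0.616), and that of pht1 minus hta1 was -0.08 (-0.27 to 0.10, adjusted p = 0.344). The change of hta2 minus pht1 was 0.04 (-0.15 to 0.23). Relative to hta1, 69.6% of the other array genes passed (77.7% in the first fit), and relative to pht1 76.0% did (78.2%).

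Neighbouring histone genes, compared after their values were seen, separated most at the hht3 and hhf3 locus. There the coding spans are 237 bases apart, and the change of hhf3 minus that of hht3 was -1.44 (95% interval -1.65 to -1.23, limma adjusted p = 0.000229). Signal of hhf3 minus hht3 was -0.35 and -0.30 on the wild-type arrays against -1.85 and -1.68 on the deletion arrays. The H4 gene thus fell, and the difference between it and the H3 gene beside it exceeded the spread between arrays. At the locus of hta1 and htb1, 561 bases apart, the change of htb1 was 0.24 higher (95% interval 0.06 to 0.42, adjusted p = 0.0278). In the first fit this passed (adjusted p = 0.00867), but not without wild-type replicate 2 (0.0699) or with the second block alone (0.071). At the locus of hht2 and hhf2, 334 bases apart, the change of hhf2 was 0.24 higher (0.04 to 0.44, adjusted p = 0.0401), and in the first fit this did not pass (adjusted p = 0.0796). The pair of hhf1 and hht1, 432 bases apart, differed by 0.14 (-0.04 to 0.31, adjusted p = 0.133), where 67.4% of other array genes passed relative to hhf1 (74.6% in the first fit).

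**Figure D3:**
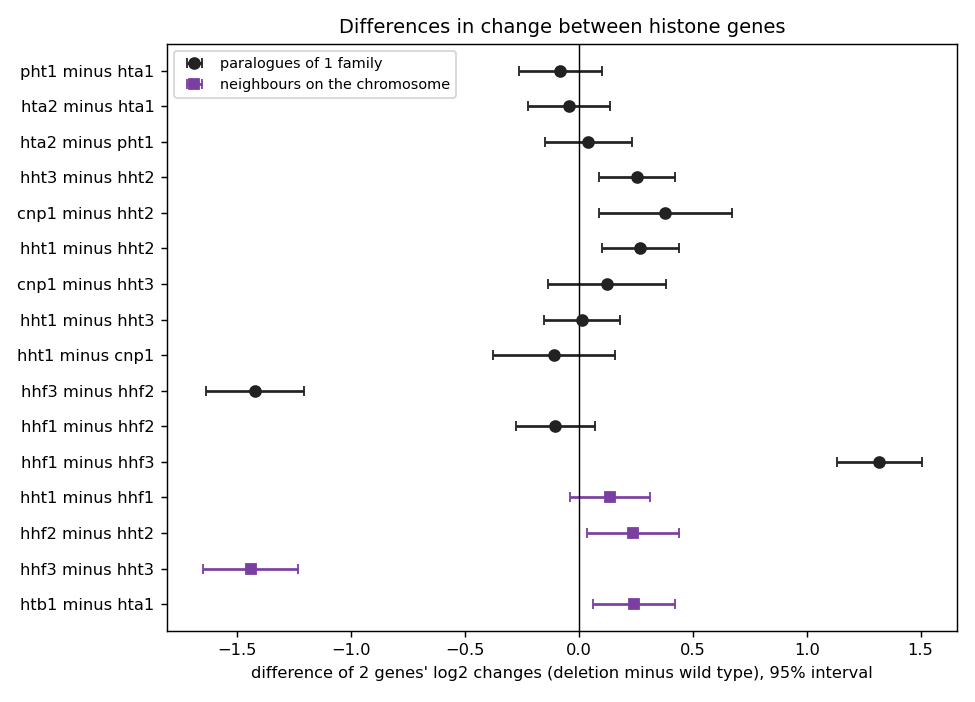
Difference between the log2 changes of 2 histone genes, with 95% intervals over 2 arrays per group; circles are paralogues of a family and squares are neighbours on the chromosome. The 3 pairs with hhf3 lie at -1.42, 1.32 and -1.44, and every other pair lies between -0.11 and 0.38.

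The genes that flank the histone loci moved in both directions. Of the 14 nearest array genes on either side of the 7 loci, 4 were higher, 5 were lower and 5 did not pass, with a median log2 difference of -0.01; of all array genes 34.0% were higher and 29.8% lower. Beside hht3, 437 bases away, a gene described as a hypothetical protein (chromosome II, 3483751 to 3487759) read log2 values of 13.28 and 13.35 in wild type against 14.16 and 14.10 in the deletion. It rose by 0.82 ± 0.05 (limma adjusted p = 0.000116), the highest value among the flanking genes. On the side of hhf3, 1681 bases away, a very hypothetical reading frame (chromosome II, 3490838 to 3491266) read 9.56 and 9.30 in wild type against 9.59 and 9.61 in the deletion, a difference of 0.17 ± 0.09 that did not pass (limma adjusted p = 0.154). No flanking gene fell as far as hhf3. The lowest of the flanking genes was a hypothetical protein gene 717 bases from cnp1 (chromosome II, 3496638 to 3496961), which fell by 0.80 ± 0.06 (limma adjusted p = 0.000177).

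Beside hta2, a putative splicing factor gene (chromosome I, 4015012 to 4017219) rose by 0.79 ± 0.06 (limma adjusted p = 0.000217) while hta2 fell. Beside pht1, the gene of a putative SURF-family protein fell by 0.51 ± 0.05 (limma adjusted p = 0.00049). The gene on the other side of pht1, described as cell division control protein 2, the main cell cycle kinase, stood at -0.01 ± 0.06 (limma adjusted p = 0.876).

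The 9 canonical genes lie close to the array's upper limit, which bounds what these arrays could show. The highest intensity on any array was 65028, and the wild-type mean of hhf1 reached 91.4% of it and that of htb1 90.1%. An increase of hhf1 beyond 1.09-fold, or of htb1 beyond 1.11-fold, would pass that highest value. The widest room among the canonical genes was 1.66-fold for hhf2, with 1.62-fold for hhf3, whereas pht1 had 2.98-fold and cnp1 6.19-fold. The overlap of the htb1 groups is therefore a value read near the top of the scale. A fall is not cut off by that highest value. Whether signal this near the top follows a fall in RNA in full was not tested. Array genes were also binned by their mean over all arrays. The interquartile range of the log2 difference was 0.15 over the 644 with a mean of at least 15.5. It was 0.60 over the 1666 from 14 to 15. This mean includes the deletion arrays, so a gene that falls from a high level moves to a lower bin. Part of the narrowness near the top therefore follows from the binning. The lowest difference among other array genes was -0.96 with this mean at least 15, and -1.82 with the wild-type mean at least 15.

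Of the 1474 other array genes with a mean over the 4 arrays of at least 15 on the log2 scale, 19.9% were lower by the test and 21.8% higher, with a median log2 difference of -0.01. The canonical genes other than hhf3 also lie at or above this level. The gene hhf3 has a 4-array mean between 14 and 15, a mean that its own fall lowers. In that range 2.64% of the 1666 array genes changed at least 2-fold in either direction. Its wild-type mean was 15.29. Of the 1453 other array genes with a wild-type mean of at least 15, 10 were at least 2-fold lower. There 0 were at least 2-fold higher, as the top of the scale leaves little room for a rise.

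Gene length moved with the histone result. The 11 genes span 312 to 516 bases, against a median of 1194 bases over all array genes, and the log2 difference rose with span across all array genes (Spearman rho = 0.445, a description, as genes share the arrays). Of the 574 other array genes that span at most 500 bases, 56.8% were lower, with a median of -0.26. Of the 88 that are both this short and at least 15 in their mean over the 4 arrays, 51.1% were lower, with a median of -0.16. That mean leaves out genes that fall far, hhf3 included. Of the 106 this short with a wild-type mean of at least 15, 58.5% were lower, with a median of -0.19. There 6 were at least 2-fold lower and 1 fell further than hhf3. The 54.5% of histone genes that were lower is close to these shares.

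With the length trend removed, hhf3 alone of the histone genes was lower, with a log2 difference of -1.30 (limma adjusted p = 2e-05). The 11 then had a median of 0.02. The falls of hta1, hta2, pht1, hht2 and hhf1 no longer passed, at -0.008, -0.05, -0.10, -0.13 and 0.02 on the log2 scale. The genes htb1 and cnp1 were then higher, at 0.24 and 0.26 (limma adjusted p = 0.0171 and 0.0102). As deposited they stood at -0.003 and 0.01, so these rises come from the subtraction of the trend. For htb1 the 0.24 is more than the 0.15 in log2 that its wild-type mean leaves below the highest value. With length and signal level removed together, hhf3 stood at -1.12 (limma adjusted p = 4.02e-05), and hhf2, htb1 and cnp1 were higher, hhf2 at 0.21 (adjusted p = 0.0231), while 31.7% of all array genes were lower and 27.9% higher. Whether the trend with length comes from the strains or from the handling of the arrays was not tested.

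**Figure D4:**
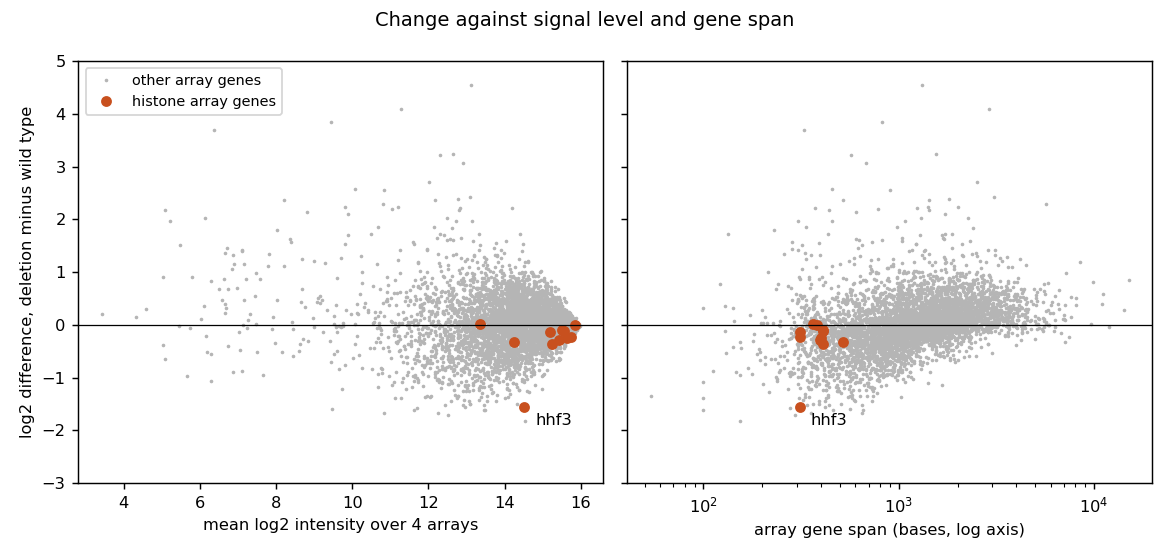
Log2 difference between deletion and wild type for all array genes against mean log2 intensity over the 4 arrays (left) and array gene span on a log axis (right), with the 11 histone genes as large points; 1 array gene lies below the plotted range. Differences narrow toward the top of the intensity scale, in part because the mean includes the deletion arrays. They rise with span, and hhf3 lies below the other histone genes in both panels.

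Other entries that hold the word histone, also within the word nonhistone, are given from the array's descriptions. Among them are a nonhistone chromosomal protein, also counted with the chromatin entries below, and overlapping entries of a type b histone acetyltransferase. Of 11 further entries whose description holds the word histone, 5 were higher, 2 lower and 4 did not pass, where 34.0% of all array genes were higher and 29.8% lower. Their median log2 difference was 0.09, and 0 of them changed at least 2-fold. The highest was a potential transcriptional adaptor like ada2, part of histone acetyltransferase complexes in budding yeast (chromosome III, 915382 to 916695), which rose by 0.62 ± 0.05 in log2 (limma adjusted p = 0.000177). A histone deacetylase gene, whose product removes acetyl groups from histone tails (chromosome I, 3149776 to 3151080), rose by 0.40 ± 0.06 (adjusted p = 0.00228). A putative histone acetyltransferase gene on chromosome I rose by 0.29 ± 0.06 (adjusted p = 0.00706). The putative HIRA gene, described as a regulator of histone transcription (chromosome II, 3733435 to 3736428), rose by 0.35 ± 0.08 (adjusted p = 0.0114). An entry described as a histone promoter control protein (chromosome II, 578784 to 579800) fell by 0.22 ± 0.08 (adjusted p = 0.0466). That p lies just under the threshold.

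Among 18 entries matched by words for chromatin, nucleosomes, SNF2 and centromere proteins, 5 were higher (27.8%), 4 lower (22.2%) and 9 did not pass. Their median was 0.06. They take in a protein kinase and the inner centromere protein mis6, both higher, and a sequence orphan, which was lower. Over all array genes 34.0% were higher and 29.8% lower. A gene similar to human Snf2 rose by 0.41 ± 0.05 (limma adjusted p = 0.000767), and a putative chromatin assembly factor subunit (chromosome II, 2497397 to 2498084) fell by 0.33 ± 0.06 (adjusted p = 0.00535). A putative chromatin decondensation protein, described as a nucleosome assembly factor, fell by 0.32 ± 0.05 (adjusted p = 0.00217). Both genes described simply as nucleosome assembly proteins, which carry histones to DNA, stood near 0, at -0.12 ± 0.06 and 0.03 ± 0.06, and neither passed. Of the named partners and regulators, matches were found for a POB3-like gene, which rose by 0.31 ± 0.07 (adjusted p = 0.0112), and an spt6-like gene, at 0.10 ± 0.06 (adjusted p = 0.193). The symbols of Ams2 and the rest were not tied to an array gene.

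The DNA replication entries, matched by words in the description, were more often higher than lower. Many of their genes act in S phase, when histone transcripts peak, but the list is wider than that. It takes in DNA polymerases gamma and zeta, an X family polymerase and an entry like yeast IML2, all of them higher. A subunit of the origin recognition complex is entered more than once. Of 37 entries, 19 were higher, 9 lower and 9 did not pass, with a median of 0.21, where 34.0% of all array genes were higher and 29.8% lower. They are long, with a median span of 1626 bases, so the trend with length runs toward higher values for them and toward lower values for the histones. A putative activator 1 subunit, part of the clamp loader (chromosome II, 3812040 to 3815020), rose by 0.85 ± 0.05 (limma adjusted p = 7.89e-05). The gene of DNA polymerase alpha, which starts new strands, rose by 0.64 ± 0.05 (adjusted p = 0.000202). The gene of the proliferating cell nuclear antigen, the sliding clamp of DNA polymerases, fell by 0.58 ± 0.05 (adjusted p = 0.000231). Subunits of ribonucleotide reductase, which makes the precursors of DNA, stood at 0.13 ± 0.05 for the large chain, which did not pass, and at -0.44 ± 0.09 for the small chain, which fell (adjusted p = 0.00687).

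The array genes whose pattern was most like the mean of the 11 histone genes were ranked by Euclidean distance between deviations from each gene's own mean over the 4 arrays. The closest was a putative prohibitin gene (chromosome III, 1327770 to 1328921), at a distance of 0.01 and a log2 difference of -0.31. A beta-adaptin-like gene and a ubiquitin hydrolase-like gene followed at 0.01, then a protein transport gene and a rho GDP dissociation inhibitor gene at 0.02. Their log2 differences ran from -0.31 to -0.30. The histone mean they match includes hhf3 at -1.55, which draws it below the median of the 11, -0.23. With 4 arrays in 2 groups such a ranking mostly finds genes with the same difference between strains.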

How the data were processed

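The authors deposited linear intensity values of 4 arrays that had passed through RMA (no version named), per the submitters' processing notes. The sources used here do not give its steps or the use of mismatch probes. The deposited pair tables also hold the authors' ratio of deletion to wild type, equal to the quotient of the intensity columns within 1e-06 on all 9994 lines of each. Values in the pair tables and the value table were equal on all 9994 lines of each array.

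The log2 of the 2 blocks per gene was averaged. In R 4.3.3, limma 3.58.1 (lmFit, eBayes) was fitted to all 4997 array genes on genotype alone, two-sided, adjusting p over every array gene (Benjamini-Hochberg), threshold 0.05, with no filter or pseudocount. For pairs of genes, the log2 value of the first was subtracted from all array genes on each array and limma refitted. In the second fit each row was moderated with the prior of the genotype fit, its variance doubled for a difference. The fits were tested on simulated data. Alternatives were quantile normalization, median centring, no dim genes (lowest 25%), 32 added before log2, either block alone, a replicate block, leaving out each array, other priors and thresholds, and loess removal (span 0.5) of trends with gene span, signal level or both.

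Groups and numbers follow the sample titles. Histone symbols come from the reference table (ASM294v3) by family, chromosome and, on chromosome II, distance to cnp1 within 1000 bases; all 11 matched, and none of its coordinates are printed. Genes named besides these are up to 4 per description list with the smallest p, flanking genes and the 5 nearest patterns; a few more (the promoter control entry, a chromatin assembly factor subunit, the nucleosome assembly proteins, the proliferating cell nuclear antigen and ribonucleotide reductase) were chosen after their values were seen. The members and lists were chosen with earlier results of these data known. No sequences are shown, as the tables used here hold none. The number of arrays limits the precision.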

Additional observations from a re-analysis of the deposited data

How the results depend on the processing

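The small number of arrays, strong signal near the top of the scale and the trend with gene length limit these results. The fall of hhf3 passed under every alternative run, from -1.12 (length and level trends removed) to -1.67 (first block alone), and so did both of its paralogue differences.

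The 6 lower histone genes went to 1 with the length trend removed, to 1 with length and level removed, and to 1 at 2-fold. The 0 higher became 2 and 3 with those trends removed. The median of -0.23 turned to 0.024 and 0.012 there, and stood at -0.198 with quantile normalization, at -0.287 with centred arrays, at -0.198 with the level trend removed, and at -0.217 and -0.248 with either block alone. Leaving out an array gave 5 (without wild_type replicate 1) to 8 (without red2_deletion replicate 1) lower and medians from -0.2404 to -0.2179. With the replicate number as a block the median was -0.2317 and 6 were lower. Same-numbered arrays showed no shared deviation across genes (r = -0.041), which cannot show whether the numbers pair cultures or hybridisations. Reversed single genes were hhf1 (0.024 and 0.011) and htb1 (0.236 and 0.197) with length and with both trends removed, and hhf2 (0.207) and pht1 (0.012) with both.

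The 4 paralogue pairs became 2 at 2-fold and 2 to 6 with an array left out (2 without either wild-type array). Of all array genes, 1699 higher and 1487 lower became 136 and 127 at 2-fold. hhf1 did not pass without wild_type replicate 1 (adjusted p = 0.0613). The p of hhf3 minus hhf2 was 2.24e-38 with the prior refitted, because that prior takes the spread of 1 reference gene as known. The deposited pair ratios were not run for pairs of genes.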
